A study of Caenorhabditis elegans with 2 samples.

Results

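The 10 genes described here form the switch that couples sex to X-chromosome dosage in Caenorhabditis elegans: xol-1, sex-1, fox-1, sdc-1, sdc-2, sdc-3, her-1, tra-1, tra-2 and dpy-27. They were chosen by their known function, out of 19973 nuclear protein-coding genes, and 5 of them lie on chromosome X. Earlier results of these data were known when the genes were chosen. Each gene was given a window of its body plus 10 kb upstream and 2 kb downstream, and every region that touched the window was counted for that gene.

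The measurements are ChIP-seq candidate regions of DMD-4, a transcription factor of the DM-domain family, in L2 larvae. There was 1 group of 2 biological replicates and no second condition, so the values below are descriptions without a statistical test. The strain was OP418, with the genotype unc-119(tm4063) III and the integrated transgene wgIs418, which makes DMD-4 carrying GFP and FLAG at the C-terminal end. The lists come from pooled whole larvae and are not split by sex. Male and hermaphrodite chromatin, and the tissues that make DMD-4, therefore cannot be told apart. The share of males among the larvae is not known here. Neither the age in hours nor the cells in which the tagged protein was present is recorded in the labels.

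As background, the ratio of X chromosomes to autosomes sets the sex of the worm. X-linked signal elements, among them the nuclear receptor SEX-1 and the RNA-binding protein FOX-1, lower the activity of xol-1, which is active in males and promotes male fate. XOL-1 keeps sdc-2 off. Where xol-1 is low, in hermaphrodites, SDC-2 acts with SDC-1 and SDC-3 to bring a condensin-like complex, of which DPY-27 is an SMC subunit, to the X chromosomes and to repress her-1. HER-1 is a secreted protein that inhibits the membrane receptor TRA-2, and the pathway ends in TRA-1, a GLI-family zinc finger factor that represses male genes. The complex is known to load at recruitment sites on X that share a sequence motif with a GCGCAGG core.

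The only region of the 10 windows on the authors' IDR list (irreproducible discovery rate, a filter for regions that rank alike in the replicates) lay upstream of xol-1. Its forward-strand sequence is shown because it carries 2 copies of the 9-letter sequence GCGCAGGGA in opposite orientations, which are in capitals. Coordinates are 1-based in ce11. The copies extend into a shared 12-base stretch, shown with 8 flanking bases on each side, the stretch in capitals, the upstream copy read on the reverse strand and the downstream copy on the forward strand.
xol-1 region, chrX:8036345-8036535, + strand: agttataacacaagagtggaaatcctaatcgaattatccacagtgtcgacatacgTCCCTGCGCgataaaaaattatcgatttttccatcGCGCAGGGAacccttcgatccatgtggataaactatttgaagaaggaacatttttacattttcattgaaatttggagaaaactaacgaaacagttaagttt
Upstream copy, chrX:8036392-8036419, − strand: aattttttATCGCGCAGGGAcgtatgtc
Downstream copy, chrX:8036424-8036451, + strand: atttttccATCGCGCAGGGAacccttcg
The 12-base copies point away from each other, with 20 bases between them. The same 12 bases occur 11 times in the nuclear genome, counting both strands, and 10 of these are on X. The stretch was taken from this region, so both counts include the 2 copies shown.

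The xol-1 region stood high in every list. In the pooled list, which the authors called on both replicates together, its signal was 160.1, which placed it at rank 39 of 11281 regions. The authors label that list as peaks and background for input to IDR. A pooled region outside the IDR list is therefore a candidate and not an established binding site. Signal is the authors' enrichment value, is never negative and has no stated scale, so it is compared only within a list. The region ranked 12th of 185 nuclear IDR peaks and 10th of 46 X-linked ones, against median signals of 61.4 and 77.8. In the replicates' own lists the signal was 105.5 in replicate 1, at rank 38 of 17531 regions, and 62.3 in replicate 2, at rank 47 of 18240 regions. Both replicates therefore had a region among their strongest here, with summits, the positions of highest signal, 86 bp apart. Replicate 2's region overlapped the pooled region but began past the pooled summit, and its own summit lay outside the pooled region.

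The summit of this region, at position 8036450, was intergenic and lay 4863 bp upstream of the start of xol-1 (WBGene00006962, chrX:8041313-8044409, + strand). The start of xol-1 was the closest protein-coding start. Genes without a coding sequence were closer: an ncRNA, C18A11.13, began 224 bp from the summit, and the opposite strand held a tRNA gene, WBGene00022939, at chrX:8036685-8036757. Both copies of the 9-letter sequence lay on the upstream side of the pooled summit, centred 46 bp and 11 bp from it. Replicate 1's own region, chrX:8036413-8036499, held the downstream copy and not the upstream one, and replicate 2's, chrX:8036469-8036642, held neither. Replicate 1 had a second region there, chrX:8036483-8036826, with a signal of 19.97 at rank 572, which covered the closest tRNA gene.

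An IDR peak in the window was thus found for 1 of the 10 genes, beside 3.04% of all protein-coding genes, and for 1 of the 5 X-linked genes, beside 3.7% of X-linked genes. The count depends on the reach upstream: it was 0 with the gene body alone, with 2 kb upstream and 200 bp downstream, and with a promoter window of 1000 bp before and 200 bp after the start. With a single gene among 10, the count is too small to set apart from these shares. The xol-1 region is described for its rank, not for the number of genes. Because the genes were chosen with earlier results known, that rank is not independent evidence. The strongest region of xol-1 exceeded that of 99.0% of all X-linked genes, with genes that had no region counted as lower.

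**Figure D1:**
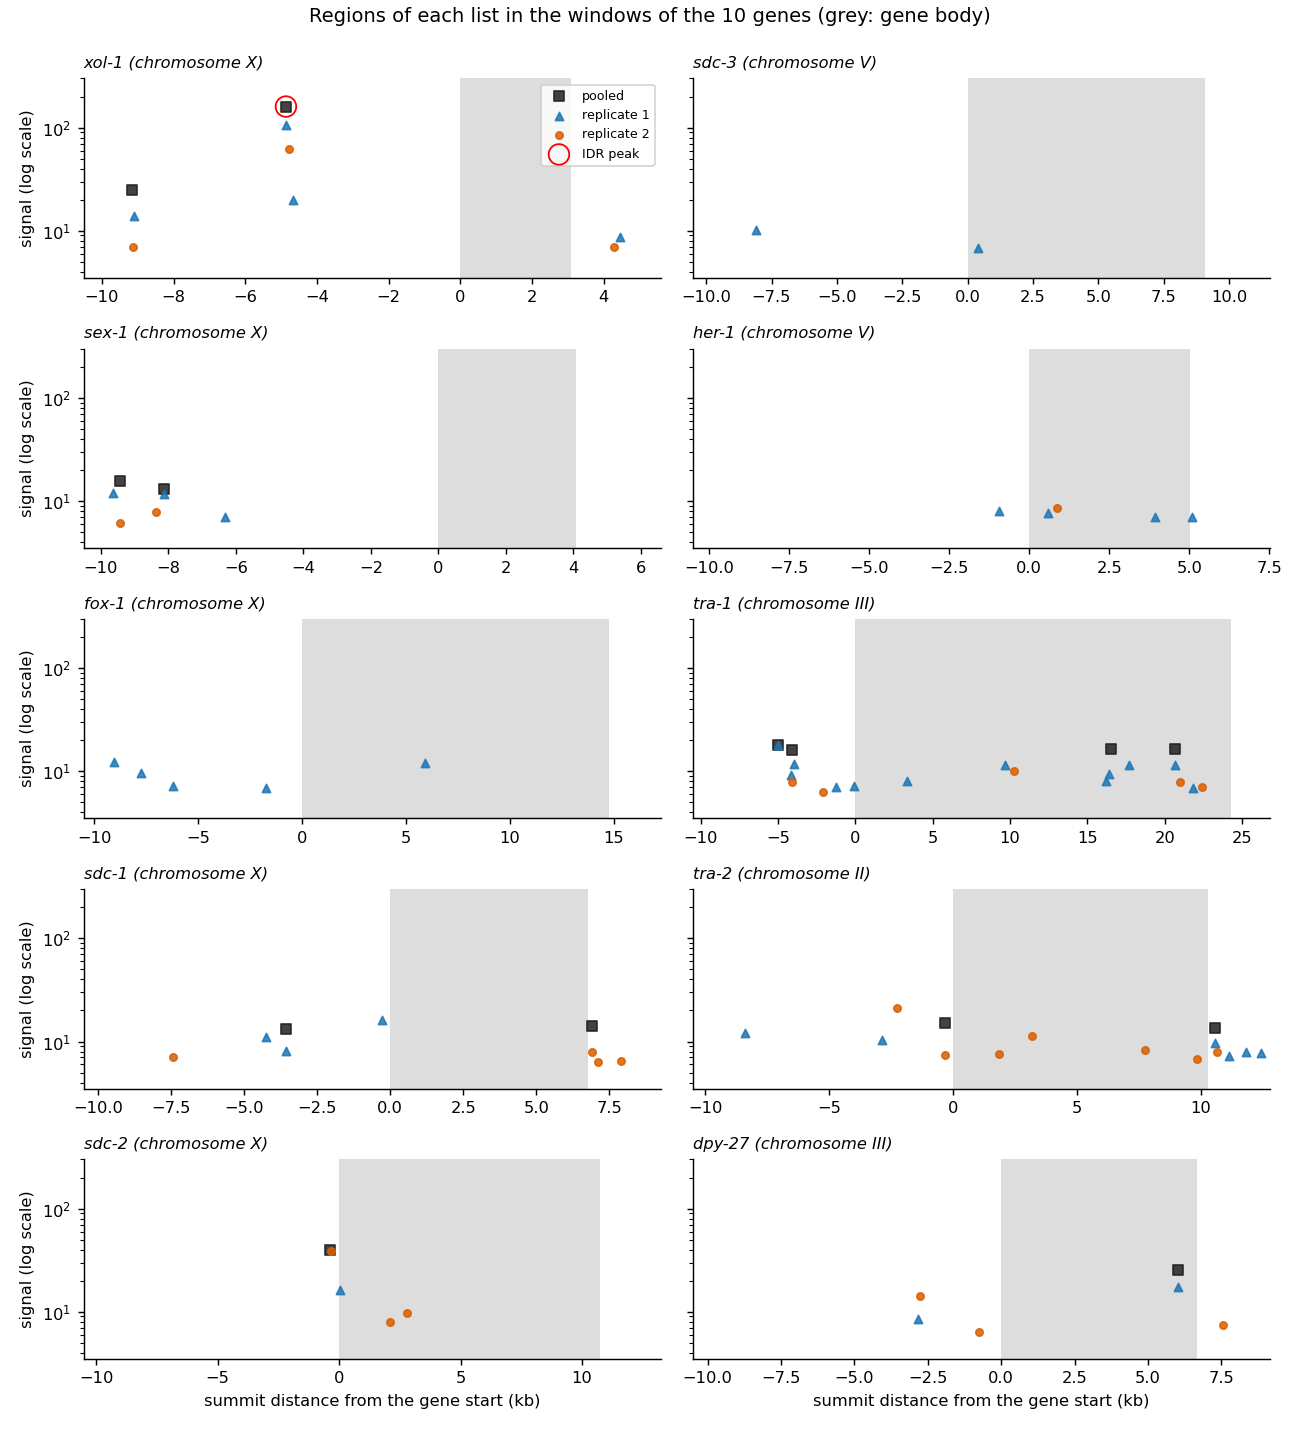
Regions of the pooled list and of both replicates' lists in the windows of the 10 genes, by distance of the summit from the gene start in kb (x axis) and signal (y axis, log scale), with the gene body in grey and the IDR peak circled. The xol-1 region at 4863 bp upstream is the highest point of all 10 windows, fox-1 and sdc-3 hold replicate 1 regions alone, and her-1 has no pooled region.

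The other xol-1 regions ranked lower. A pooled region at chrX:8031970-8032319, 9168 bp upstream of xol-1 and closest to the start of C34D10.1, had a signal of 25.0 at rank 1327. The replicates gave 13.9 there, at rank 2302 of replicate 1, and 6.92, at rank 14297 of replicate 2. Downstream of xol-1, in an intron of C18A11.4, replicate 1 had a region of 8.63 and replicate 2 one of 6.98 that overlapped, with no pooled region.

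The letters at the xol-1 region were then compared with other regions by searching within 100 bp of each summit on both strands. Of the 14 pooled regions in the 10 windows, only the xol-1 one held GCAGGGA, and the same was true of GCGCAGG and of the piece between them, CGCAGGG. These overlapping 7-letter pieces of 1 sequence were picked from the known recruitment motif and from an earlier search of these same lists. GCAGGGA was found at 15 of 46 X-linked IDR peaks (32.6%), 6 of 139 autosomal IDR peaks (4.32%), 0.463% of the X-linked regions outside the IDR list and 1.01% of windows at coding start sites. Because the pieces were partly chosen on these peaks, their shares are not independent evidence. The 9-letter sequence, which was put together after the xol-1 sequence had been seen, occurred at 12 of the 46 X-linked IDR peaks (26.1%) and at none of 139 autosomal ones, where a count of 0 allows a share of up to 2.16%. Over all 11254 nuclear pooled regions it occurred in 16 (0.142%). At coding start sites it was found in 0.0403% of 29773 windows.

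Within the X-linked peaks that carry the 9-letter sequence, the xol-1 peak was 6th of 12 by signal. Of the 10 strongest X-linked IDR peaks, 6 carried it. Copies lay a median of 41.5 bp from the summit and at most 83 bp. Only 2 of the 12 peaks held more than 1 copy, and only the xol-1 peak held copies on both strands. Across the nuclear genome, X had 34 copies, or 1.92 per Mb, and the autosomes 79, or 0.957 per Mb. The pair at xol-1, with centres 35 bp apart, was the only pair of copies within 50 bp of each other in the nuclear genome. Because the 9 letters were put together after the xol-1 sequence had been seen, its pair of copies is not independent evidence. GC content within 100 bp of the summit was 36.3% at xol-1, with a median of 39.1% at X-linked IDR peaks and 30.3% at other X-linked regions, and its part in these shares was not tested.

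**Figure D2:**
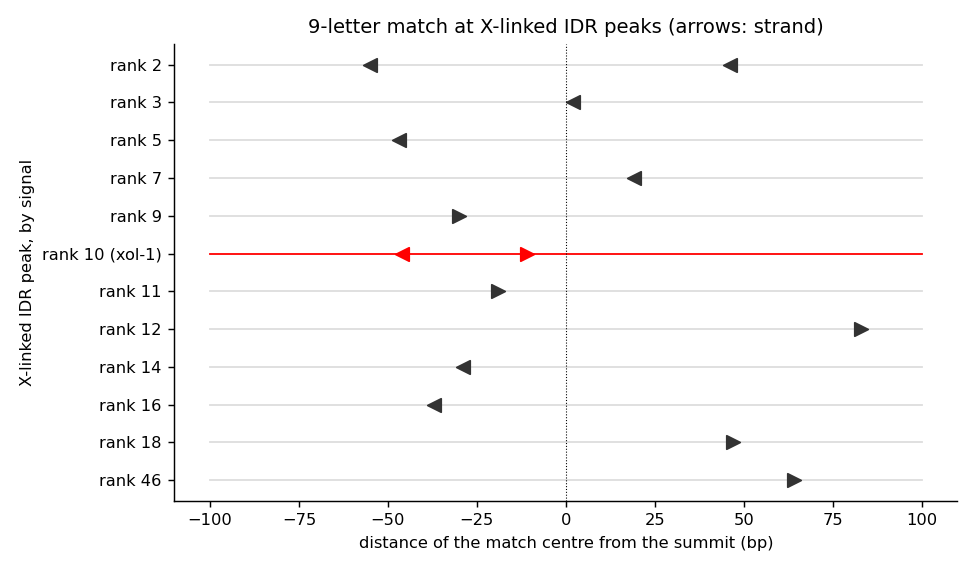
Positions of the 9-letter match relative to the summit, in bp (x axis), at the X-linked IDR peaks that carry it, ordered by signal (y axis), with arrows for the strand. All copies lie within 83 bp of the summit, and the xol-1 peak is the only one with arrows in opposite directions.

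The 9-letter sequence was rare in the other windows. It occurred 2 times in the xol-1 window, both at the peak, and 1 time in the her-1 window, 1980 bp downstream of the her-1 start, with no region of any list there. The shorter GCAGGGA occurred 14 times in 6 of the 10 windows. No pooled region other than the xol-1 one had a copy within 100 bp of its summit. The DM-domain core ACAATGT, which reads ACATTGT on the other strand, was absent within 100 bp of all 14 summits, where a count of 0 allows a share of up to 21.4%, and was present in 3.35% of all nuclear pooled regions. TGTTGC, known as the core bound by the DM-domain factor MAB-3, was present at the sdc-2 region and 1 tra-2 region, beside 7.78% of all nuclear pooled regions and 10.3% of coding start sites. GCGCAAG, from the same earlier search, was at none of the 14, with the same limit of 21.4%, and at 0.880% of all nuclear pooled regions.

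The second strong region lay in front of sdc-2 (WBGene00004746, chrX:11522707-11533450, + strand), the gene whose product starts assembly of the dosage compensation complex on X. The 201 bases around the summit are shown because this was the sole region within 1 kb upstream of a switch gene with a high rank. The capitals mark TGTTGC as read on the reverse strand.
sdc-2 region, chrX:11522254-11522454, + strand: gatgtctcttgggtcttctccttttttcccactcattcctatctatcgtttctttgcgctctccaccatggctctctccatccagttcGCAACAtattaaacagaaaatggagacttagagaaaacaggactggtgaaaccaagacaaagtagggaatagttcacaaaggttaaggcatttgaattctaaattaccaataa

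The pooled region, chrX:11522179-11522528, had its summit 353 bp upstream of the sdc-2 start and a signal of 39.3 at rank 317, below the lowest signal of any IDR peak, 46.4. The authors' −log10 q-value was at the highest value in the list, 2.85. Replicate 2 had a region of signal 38.7 at the same place, at rank 82 of its list. Replicate 1 had no region that overlapped it. Its closest one, chrX:11522578-11522921, had a signal of 16.3 at rank 1223, with a summit 43 bp downstream of the start in a coding exon. The replicates' regions were separated by 40 bases and their summits by 387 bp.

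This split between replicates was rare among regions of that strength. Of the 144 pooled regions at the highest −log10 q-value outside the IDR list, 137 overlapped regions of both replicates. Replicate 1 alone overlapped 5, replicate 2 alone overlapped 1, the sdc-2 region, and the remainder had no overlap in either. Among the 212 strongest regions of each replicate, 15 of replicate 2's had no counterpart of any rank in replicate 1, and 12 of replicate 1's had none in replicate 2. A region at the highest −log10 q-value was present for 2 of the 10 genes, xol-1 and sdc-2, beside 5.2% of all protein-coding genes. Taking the 212 strongest regions of replicate 2 alone in place of the IDR list gave the same 2 genes, and those of replicate 1 alone gave xol-1. The sdc-2 region exceeded the strongest region of 94.3% of all X-linked genes, again with genes that had no region counted as lower. The GC content of the sdc-2 region was 39.8%.

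**Figure D3:**
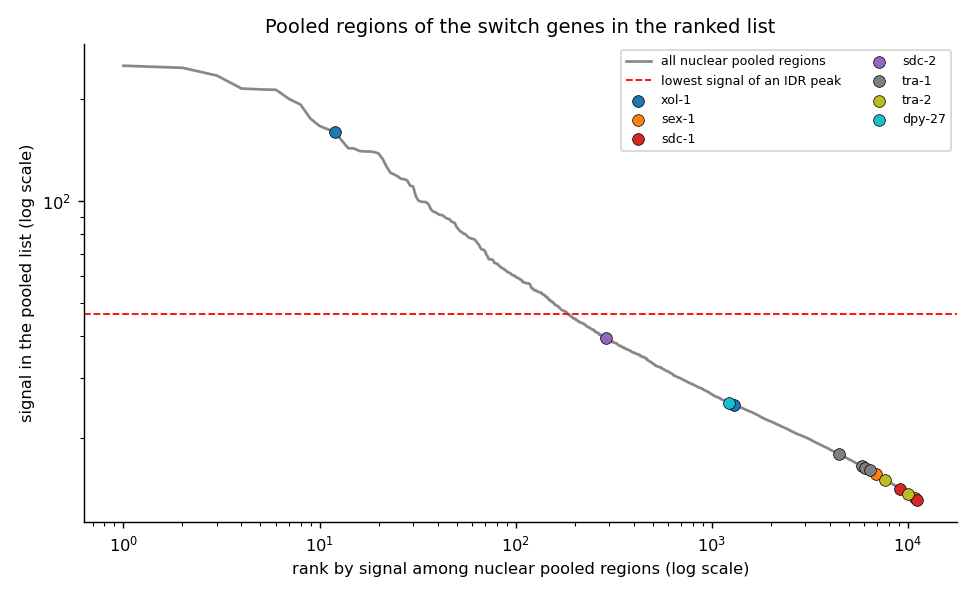
Signal in the pooled list (y axis, log scale) against rank among nuclear pooled regions (x axis, log scale), with all regions as a grey line, the 14 regions of the switch genes as coloured points and the lowest signal of an IDR peak as a dashed line. The xol-1 region lies above the dashed line and the sdc-2 region just below it, and 10 of the 14 lie far down the list, at signals of 17.9 or less.

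The 2 partners of SDC-2 had weaker or unshared regions. For sdc-1 (WBGene00004745, chrX:16275763-16282534, + strand), which encodes a zinc finger protein, the pooled regions had signals of 14.1 at rank 9194, beyond the gene's end, and 13.1 at rank 11126, 3570 bp upstream. The first overlapped a region of replicate 2 alone, with a signal of 7.91, and the second one of replicate 1 alone, with 8.14. The single-replicate region with the highest rank in its own list was closer to sdc-1. This replicate 1 region, chrX:16275311-16275654, lay 280 bp upstream of the start, with a signal of 16.2 at rank 1258. It had no overlap with the pooled list or replicate 2. For sdc-3 (WBGene00004747, chrV:15039148-15048207, − strand), also a zinc finger protein, the pooled list and replicate 2 held nothing in the window. Replicate 1 had regions of 6.85, in an intron, and 10.1, 8080 bp upstream. Neither gene thus had a region that both replicates shared.

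The signal elements upstream of xol-1 in the pathway also had low values. For sex-1 (WBGene00004786, chrX:10201329-10205421, − strand), both pooled regions lay far upstream, inside neighbouring genes. The one 9438 bp upstream, in a coding exon of F44A6.4, had a signal of 15.6 at rank 6903, with 11.9 in replicate 1 and 6.16 in replicate 2. The one 8139 bp upstream, in an intron of F44A6.3, had 13.2 at rank 10881, with 11.8 and 7.79. Both replicates held these regions, but below the median signal of nuclear pooled regions, 16.6. For fox-1 (WBGene00001484, chrX:2445117-2459893, − strand), no pooled or replicate 2 region fell in the window, and the closest pooled summit was 13907 bp from its start. Replicate 1 alone had 5 regions there, with signals from 6.89 to 12.4, the best at rank 3517.

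The complex subunit gene dpy-27 (WBGene00001086, chrIII:3813018-3819679, − strand) had 1 pooled region, chrIII:3813480-3813829, in its own 3′ UTR, 6024 bp downstream of its start. The signal was 25.4 at rank 1253. It exceeded the strongest region of 84.7% of all autosomal genes, with genes that had no region counted as lower. Replicate 1 held it with a signal of 17.4 at rank 957, and replicate 2 had no overlapping region. The place where both replicates had overlapping regions was a coding exon of amx-1, upstream of dpy-27, with 8.42 in replicate 1 and 14.3 in replicate 2, and there was no pooled region. Each replicate's best region near dpy-27 was therefore at a different place.

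The sex determination genes below the SDC proteins had no pooled region ranked above 4465. For her-1 (WBGene00001842, chrV:9697015-9702035, + strand), replicate 1 had 4 regions with signals from 6.94 to 8.02 and replicate 2 had 1 of 8.60, and the pooled list had none, with its closest summit 8034 bp from the start. A pair of overlapping replicate regions lay in a her-1 intron. For the receptor gene tra-2 (WBGene00006605, chrII:6955384-6965673, − strand), a pooled region 349 bp upstream of the start, in an intron of eif-2Bgamma, had a signal of 15.0 at rank 7704 and was held by replicate 2 alone, with 7.41. A second, in the 3′ UTR of ceh-38, had 13.6 at rank 10024, with 9.74 in replicate 1 and 7.83 in replicate 2. By rank within its own list, the highest region in the tra-2 window was a replicate 2 one of 20.98 at rank 371. It lay 2262 bp upstream in the 3′ UTR of C15F1.5, without a counterpart in replicate 1 or the pooled list.

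The terminal regulator tra-1 (WBGene00006604, chrIII:11170890-11195201, − strand) had the most pooled regions of the 10 genes, 4, more than 87.1% of autosomal genes. It also had the longest window of the 10, 36312 bp, and it held 0.110 regions per kb, while all autosomal windows together held 0.103. The highest signal, 17.9 at rank 4465, was 5003 bp upstream, with 17.9 in replicate 1 and no replicate 2 region. A region in an intron 20678 bp downstream of the start had 16.5, with 11.4 in replicate 1 and 7.94 in replicate 2. Another, 16504 bp downstream in an intron, had 16.3, with 9.41 in replicate 1 alone. The region 4128 bp upstream had 15.99, with 11.8 and 7.94. All 4 signals were thus close to the median of nuclear pooled regions, and 2 of the 4 regions were shared by the replicates.

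Over the 10 genes, the number of regions was not high for their windows. A pooled region was in the window of 7 of the 10 genes, beside 66% of all protein-coding genes. It was in the window of 4 of the 5 X-linked genes, beside 75.5% of X-linked genes, and of 3 of the 5 autosomal genes, beside 64.5% of autosomal genes. A pooled region that both replicates overlapped was present for 4 of the 10, beside 38.6% of all genes, and own regions of each replicate for 8 of the 10, beside 72.1%. The median was 1.5 pooled regions per switch gene and 1 per protein-coding gene. The windows were longer, with a median of 19916 bp against 14026 bp, and 9 of the 10 were among the longest 25% of all windows. Dividing the summed regions by the summed window length gave 0.0652 regions per kb for the switch genes and 0.107 for all genes. The median of the strongest signal was 17.9 over the 7 switch genes with a region and 19.5 over the 13187 genes with one.

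**Figure D4:**
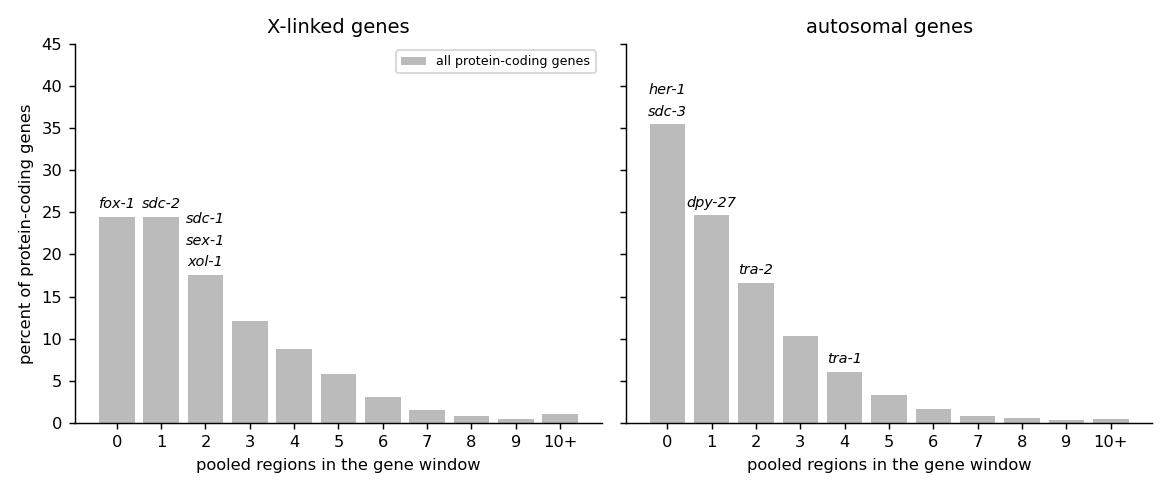
Percent of protein-coding genes (y axis) by number of pooled regions in the gene window (x axis), for X-linked and autosomal genes, with the switch genes named above their bars. Of the switch genes 9 have fewer than 3 regions, and tra-1, with 4, is the exception.

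Agreement between the replicates at these genes was near that of all regions. Of the 14 pooled regions, 7 overlapped a region of each replicate (50%), 4 of replicate 1 alone and 3 of replicate 2 alone, while 39.1% of all 11254 nuclear pooled regions were overlapped in both. The count was 3 when the pooled summit itself had to lie in a region of each replicate. The xol-1 IDR peak was not among these 3. From the replicates' own lists, 28.6% of the 42 counted replicate 1 regions overlapped a replicate 2 region, beside 30.2% of all nuclear replicate 1 regions. For replicate 2 it was 35.7% of 28, beside 29.1%. Outside xol-1 and sdc-2, no pooled region had a replicate signal above 17.9. The authors' −log10 q-value was 2.85 at the xol-1 IDR peak and the sdc-2 region. At the other pooled regions of the switch genes it ran from 0.0210 to 0.976. The regions are not independent of other genes: 10 of the 14 also lay in the window of another protein-coding gene, and 7 had their own switch gene as the closest coding start.

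**Figure D5:**
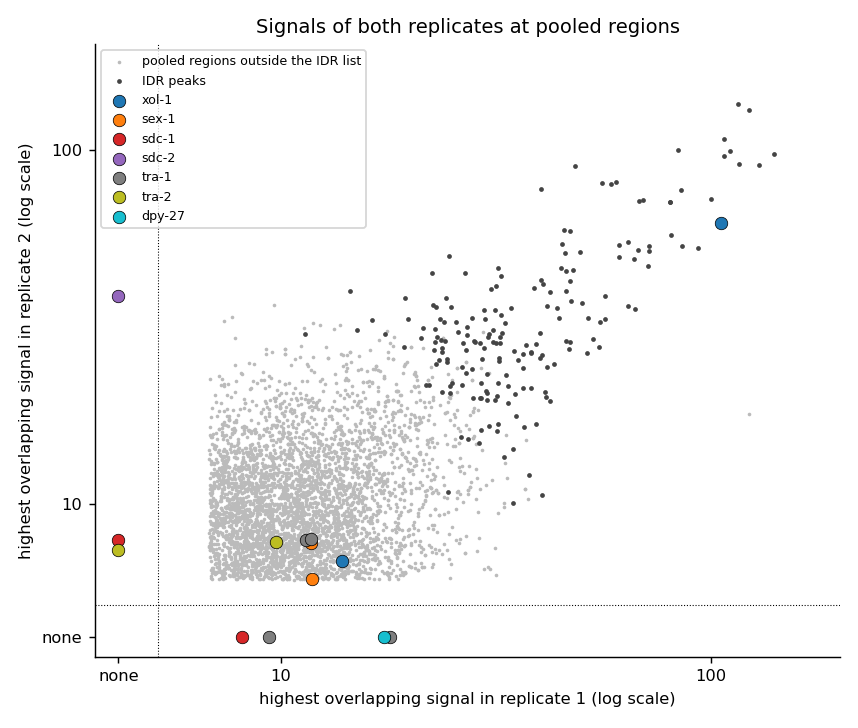
Highest overlapping signal in replicate 1 (x axis, log scale) and replicate 2 (y axis, log scale) at nuclear pooled regions, with IDR peaks in dark grey, other regions in light grey and the switch gene regions in colour; regions without an overlap in one replicate are set at the edge. The xol-1 region is at 105.5 and 62.3, the sdc-2 region sits on the replicate 1 edge at 38.7, and the others are at 17.9 or below.

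A wider list of 27 genes covered X-chromosome signalling, the dosage compensation complex, sex determination, germline sex and TRA-1 outputs. An IDR peak was in the window of 1 of the 27, beside 3.04% of all genes. The gene was dpy-28, which encodes a condensin subunit of the complex. That peak, chrIII:10759027-10759376, had a signal of 88.5 at rank 73, with 55.2 in replicate 1 and 32.7 in replicate 2. Its summit was 3929 bp from the dpy-28 start but 105 bp from that of tasp-1. Pooled regions were in the windows of 18 of the 27, close to the share of all genes, 66%, with a median of 1 region. The median strongest signal of the list was 17.6. The 6 complex genes had more, with a median of 4.5 regions and a median strongest signal of 29.2 over the 5 with a region. Their windows ran from 12867 bp for dpy-30 to 29179 bp for mix-1, beside a median of 14026 bp for all genes. The part of window length in these numbers was not tested. Of the complex genes, mix-1, which encodes an SMC subunit, had a signal of 39.7 at rank 309 in its own coding exon. The replicates gave 13.9 there in replicate 1 and 26.5 in replicate 2. Outside the complex, the highest signals were 33.7 for laf-1 and 32.5 for sea-2. The first lay in an intron of cox-6B, 220 bp from the swsn-3 start and 10154 bp from that of laf-1. The second lay in a sea-2 intron, with 30.9 in replicate 1 and no overlapping replicate 2 region. The genes mix-1, laf-1 and sea-2 were named after their values were seen. By role, 5 of 6 complex genes, 6 of 7 sex determination genes, 2 of 3 signal elements, 2 of 4 TRA-1 outputs and 3 of 7 germline genes had a pooled region.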

How the data were processed

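DMD-4 ChIP-seq region lists of 2 biological replicates were used as deposited. Per the descriptions deposited with the files, the authors called regions for each replicate and for both together against a control, and derived the IDR list from these. The aligner, caller, versions and IDR threshold are not stated in these sources. The authors' signal and −log10 q-value per region were used to rank within a list. No read counts were used, so depth is unknown, and limits on shares cover the counting of regions alone.

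Genes came from Ensembl release 115 and bases from RefSeq's WBcel235, the same sequence as ce11. The ce10 lists were not used here. Overlap meant at least 1 shared base. Regions were joined to windows and searched for letters with Python 3.11.15, numpy 2.4.6 and pandas 2.3.3, and figures used matplotlib 3.10.9. The joins were tested on simulated data. No hypothesis test was run.

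The genes and short sequences were chosen with earlier results of these data known. The text names all 10 genes with their IDR peaks or strongest pooled regions, the closest start sites, and each gene of the wider list with an IDR peak. Single-replicate regions were named after their values were seen. Alternatives were other windows, overlap rules, single replicates and, added later, the highest −log10 q-value.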

Additional observations from a re-analysis of the deposited data

How the results depend on the processing

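The count of genes with an IDR peak, 1, became 0 with the gene body alone, 0 with 2 kb upstream and 200 bp downstream, 0 with the promoter window, and 2 with all pooled regions at the highest −log10 q-value, an alternative chosen after seeing the data. Using a single replicate gave 1 to 2. It was 1 with the summit inside the window, the closest start only, or the stronger IDR peaks. The count with a pooled region, 7, became 3 with the gene body, 2 with the promoter window and 4 with the closest start, and with a single replicate's list 8 to 10. The 7 pooled regions overlapped in both replicates became 3 with at least 50% of the region overlapped and 3 with the pooled summit inside a region of each replicate. The xol-1 IDR peak was lost under both of these rules. The cause was not tested beyond the narrower windows and stricter overlaps themselves. No paired analysis was possible because there was 1 group. With 2 replicates and unknown depth, a region missing from a list shows only that it was not called.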

Other observations

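Short copies of the recruitment motif's letters also lay near starts of switch genes without a region. GCAGGGA was centred 17 bp from the her-1 start and 218 bp from the sex-1 start, and no list held a region at either place. These positions were looked up after the xol-1 sequence had been seen.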
